A study of Homo sapiens with 16 samples.

Results

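The ATF4 amino acid response genes described here are 38 named genes, all found among the 18332 genes of the deposited expression table by their current symbols. The rule is a list of names, of ATF4 and its known targets and partners, and uses no measured value. The names were, however, chosen with earlier results of these data known. The shares of called members below therefore do not come from a choice made blind to the data. The list comprises 8 amino acid transporters, 6 enzymes of serine and one-carbon metabolism, 6 other amino acid enzymes, 6 aminoacyl-tRNA synthetases and 12 stress regulators, ATF4 itself among them.

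RNA-Seq was performed on MDA-MB-231 and MDA-MB-468, established estrogen receptor-negative breast cancer cell lines. Each was cultured in T25 flasks for 48 hours with glucose at 5 mM (low glucose, which served as control) or at 25 mM (high glucose, modelling hyperglycemia), with 4 samples in each of the 4 groups and 16 in all. The study's general methods describe treatment without serum, after conditioning of all cells in low glucose. The comparisons ask which members respond to high glucose in each line and whether the lines respond alike. MDA-MB-231 was routinely grown in DMEM and MDA-MB-468 in RPMI, media of different amino acid content. The base medium during the glucose treatment is not given for this experiment. The only low- and high-glucose media in the study's reagent list are DMEM. Line and medium, the routine medium included, therefore cannot be told apart in any comparison between the lines. The sources do not say that the 4 replicates of a group came from separate cultures, so the tests measure the spread between these samples, which may be technical.

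ATF4 is a transcription factor of the integrated stress response. When amino acids run short, or when the endoplasmic reticulum is loaded with unfolded protein, kinases phosphorylate the translation factor eIF2, general protein synthesis slows and the ATF4 mRNA is translated more. ATF4 then pairs with C/EBP family proteins on composite C/EBP-ATF response elements and turns on genes for amino acid uptake, synthesis and charging onto tRNA, together with CHOP, TRIB3 and other regulators that limit or end the response. Since ATF4 protein is set largely by translation, the level of its mRNA need not follow its activity, and only mRNA was measured here.

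The core of the response element, TGATGNAA, was searched for on both strands of RefSeq promoter windows (GRCh38.p14, from 250 bases before to 50 bases after an annotated start, 300 bases a window). Of the members, 31 had at least 1 window, and 12 of these (38.7%) held the core in a window, against 1217 of 27305 genes (4.46%) of the whole table. Counted by window, 12 of 52 member windows (23.1%) held it, against 1270 of 35116 (3.62%). The list is of known ATF4 targets and partners, so these shares describe the list and are no independent test of it. SLC7A11, PSPH, SHMT2, ALDH1L2, PYCR1, GPT2 and NUPR1 had no window in the table. The 12 matches are shown with 10 bases on either side, each read in the direction of the core, with the core in capitals, because they let the members with a match be compared letter by letter.
ATF3: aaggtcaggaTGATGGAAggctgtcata
CEBPG: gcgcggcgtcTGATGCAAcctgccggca
CHAC1: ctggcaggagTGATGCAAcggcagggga
SLC1A4: cggctggagaTGATGCAAacgggagccg
SLC1A5: aggaagtggcTGATGCAAgctgtccagg
SLC3A2: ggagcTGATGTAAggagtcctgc
SLC7A1: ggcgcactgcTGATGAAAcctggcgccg
ASNS: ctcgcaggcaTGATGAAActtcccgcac
AARS1: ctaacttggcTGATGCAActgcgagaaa
CARS1: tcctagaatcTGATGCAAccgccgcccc
GARS1: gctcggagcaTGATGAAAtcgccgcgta
MARS1: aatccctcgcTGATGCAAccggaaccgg
The stretch printed for SLC3A2 begins at the edge of its window and has fewer bases before the core. Of the 12 cores, 7 read TGATGCAA and 3 read TGATGAAA, 5 lay on the strand of the gene and 7 on the other. The ASNS match began 68 bases before the start (printed stretch with flanks chr7:97872459-97872486). The CHAC1 match began 209 bases before it (printed stretch with flanks chr15:40953252-40953279). Matches at SLC1A4, CARS1 and MARS1 began 7, 2 and 4 bases before the start. A match is a string of letters in a window and says nothing of binding, and windows without a match say only that these letters are not in them.

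The 250 bases before the start are printed for ASNS and CHAC1, because these 2 members with a match rose in MDA-MB-231 and fell in MDA-MB-468 (values below). SLC3A2 and CARS1, the other members with a match and this pattern, are not printed at this length. The core is in capitals, and for CHAC1 it reads on the opposite strand. The positions are chr7:97872409-97872658 (minus strand) and chr15:40953221-40953470 (plus strand) of GRCh38.p14.
ASNS: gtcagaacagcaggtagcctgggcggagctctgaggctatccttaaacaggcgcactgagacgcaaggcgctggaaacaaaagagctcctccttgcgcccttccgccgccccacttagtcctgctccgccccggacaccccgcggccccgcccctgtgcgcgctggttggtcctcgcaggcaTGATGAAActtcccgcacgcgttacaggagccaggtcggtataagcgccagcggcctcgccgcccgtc
CHAC1: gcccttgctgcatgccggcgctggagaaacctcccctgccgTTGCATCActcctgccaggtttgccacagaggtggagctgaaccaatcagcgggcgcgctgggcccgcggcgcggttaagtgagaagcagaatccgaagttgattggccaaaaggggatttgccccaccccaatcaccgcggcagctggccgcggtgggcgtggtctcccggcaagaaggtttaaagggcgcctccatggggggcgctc
Among members with a window, the core was found in 4 of the 12 that rose in MDA-MB-231 and fell in MDA-MB-468, and in 4 of the 9 that rose in both lines.

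The libraries held 14094597 to 24425916 reads assigned to genes, and 3 reads, taken as the floor of detection, corresponded to 0.123 to 0.213 CPM (reads scaled to a common library total). Values below are normalized read counts, that is, reads scaled by a factor of the library, so they are shares of a library and cannot tell fewer transcripts per cell from a larger total of RNA. As a check of the lines, VIM and ZEB1 were higher in MDA-MB-231 and CDH1, EGFR and KRT5 higher in MDA-MB-468, but SPARC, listed as an MDA-MB-231 marker, was between 1.95 and 11.8 normalized counts in all 16 libraries. ESR1 was between 38.2 and 69.7 normalized counts in MDA-MB-468 and at or below 2.92 in MDA-MB-231, although both lines are described as estrogen receptor-negative. Low-glucose replicate 4 of MDA-MB-231 was the lowest of its group for 19 of 36 members (31.0% of all genes), and high-glucose replicate 2 of MDA-MB-468 for 21 of 38 (31.6% of all genes).

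In MDA-MB-231, every member that passed the test was higher in high glucose. Of 36 members tested, 28 were higher in high glucose at an adjusted p below 0.05 (limma on log2 of the normalized count plus 1, Benjamini-Hochberg over all 14884 genes tested), against 5.71% of all genes, and 0 were lower, against 9.37% of all genes. No member was lower at an unadjusted p below 0.05 either, or with edgeR or DESeq2. The median log2 difference of the members was 0.22, against 0.0017 for all genes tested. The groups did not overlap for 25 members higher in high glucose (background 7.63%) and for 0 members lower (background 11.1%). The changes were small, from -0.18 to 0.62 on the log2 scale. Without low-glucose replicate 4, 27 were called higher and 0 lower. CBS and ALDH1L2 were not tested in this line because they had 0 reads and 1 to 5 reads in each library. With quantile normalization the calls over all genes were 1027 higher and 1114 lower, against 850 and 1395 here, while the count of members called higher was 24 to 29 over 19 alternative settings.

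In MDA-MB-468, the same list split (log2 differences throughout, with 4 samples a group). Of 38 members tested, 13 were higher, against 24.9% of all 15757 genes tested, and 18 were lower, against 22.7%. The median log2 difference of the members was -0.068, against 0.00011 for all genes. Groups did not overlap for 11 members higher (background 22.2%) and 18 lower (background 20.4%). Both shares of called members lay above those of all genes, the share of lower ones by more. The differences ran from -1.05 to 0.43 on the log2 scale. Over 19 alternative settings, leaving out each sample among them, 10 to 13 members were called higher and 18 to 21 lower.

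Tested directly, as the response of MDA-MB-468 minus that of MDA-MB-231, 21 of 38 members had a lower response in MDA-MB-468 (background 13.9% of 17115 genes) and 2, AARS1 and ALDH18A1, a higher one (background 17.0%). The median difference was -0.27, against -0.0036 for all genes. CBS, with 0 reads in MDA-MB-231, was among the 38 but had no measurable response there, and its difference was not called. Taken by their calls in each line, 14 members rose in MDA-MB-231 and fell in MDA-MB-468, and 11 rose in both. The share of all genes with either pair of calls was not counted, so these counts describe the list only. Taken singly, 5.71% of all genes rose in MDA-MB-231, and 24.9% rose and 22.7% fell in MDA-MB-468. These single shares do not give the share of a pair of calls. GPT2, GARS1 and SARS1 rose in MDA-MB-231 and were not called in MDA-MB-468, PYCR1 and ALDH18A1 the reverse. CEBPG and STC2 fell in MDA-MB-468 and were not called in MDA-MB-231. SLC7A5, SLC7A1, ATF3 and ATF5 passed the test in neither line.

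**Figure D1:**
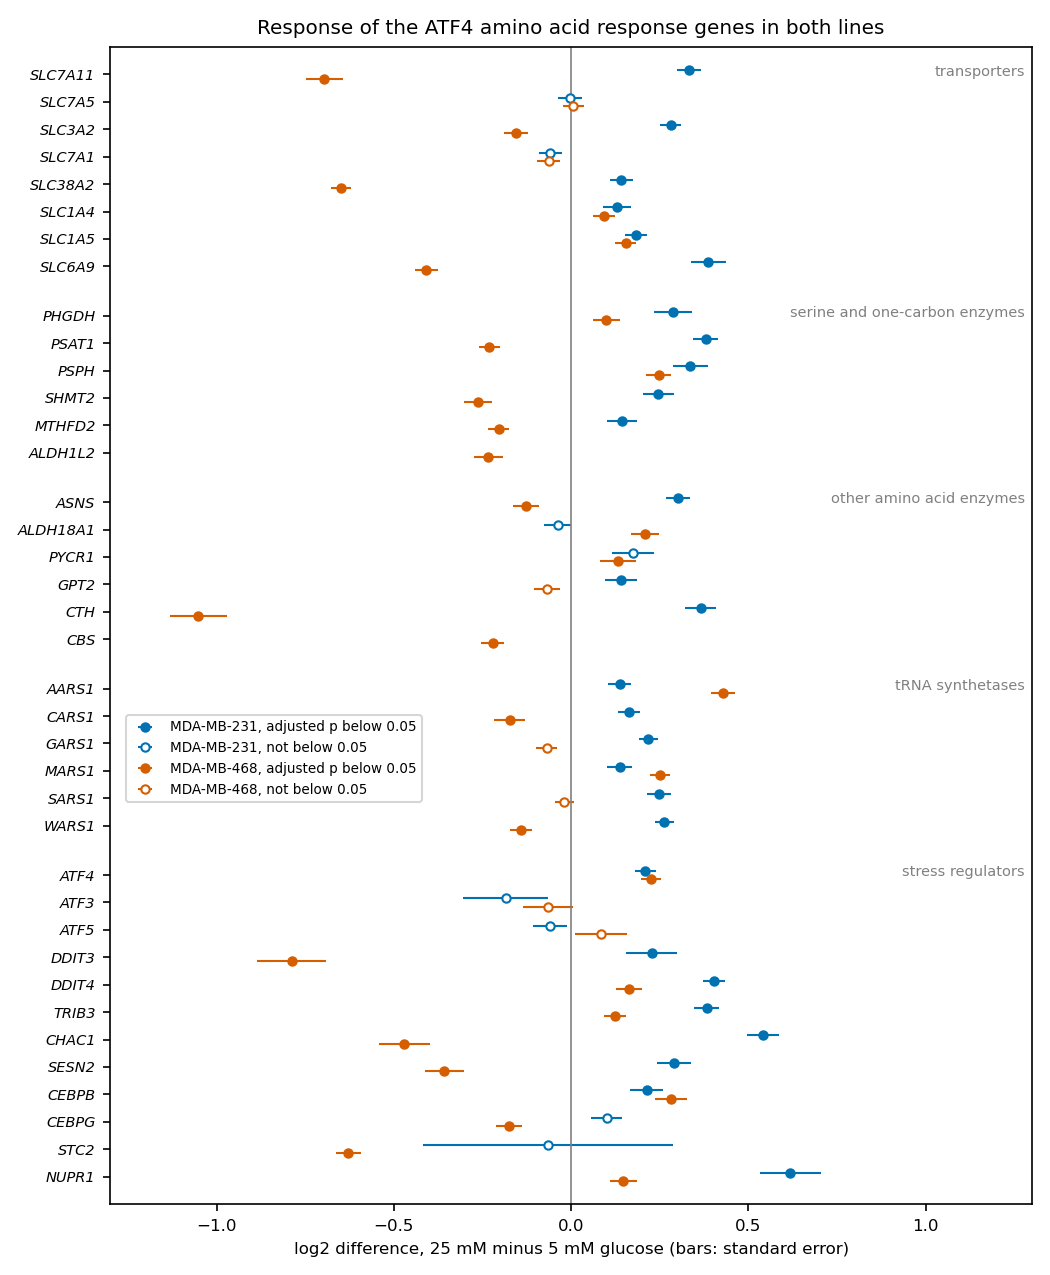
Log2 difference in normalized read count between high (25 mM) and low (5 mM) glucose for each member in MDA-MB-231 (blue) and MDA-MB-468 (orange), with bars for the standard error and filled points for a limma adjusted p below 0.05. Blue points lie mostly to the right of 0, between -0.18 and 0.62, and orange points lie on both sides, between -1.05 and 0.43.

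ATF4 (ENSG00000128272, chr22:39915700-39918688, plus strand, GRCh37), which heads the response, rose by nearly the same amount in both lines. In MDA-MB-231 its normalized read counts were 6773, 7074, 6893 and 6571 in low glucose and 7859, 7997, 7832 and 7886 in high glucose. In MDA-MB-468 they were 13463, 13199, 13622 and 13090.5 in low glucose and 15700.3, 14958, 15863 and 15911 in high glucose. Every high-glucose library lay above every low-glucose library of its line, and every MDA-MB-468 library above every MDA-MB-231 library. ATF4 rose by 0.21 ± 0.029 (± SE, adjusted p = 6.63e-05 by limma) log2 units in MDA-MB-231 and by 0.23 ± 0.028 (± SE, adjusted p = 4.5e-06 by limma) in MDA-MB-468, and the difference of the responses was 0.016 ± 0.035 (± SE, adjusted p = 0.776 by limma). With quantile normalization this difference was -0.084 (adjusted p = 0.0677), and it was not called under any of the 27 alternatives. The 14 members that rose in MDA-MB-231 and fell in MDA-MB-468 did not share this pattern. Processed copies of ATF4 (ATF4P3 and ATF4P4) are separate rows of the table, and how reads were split among them is not given in the sources used here.

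**Figure D2:**
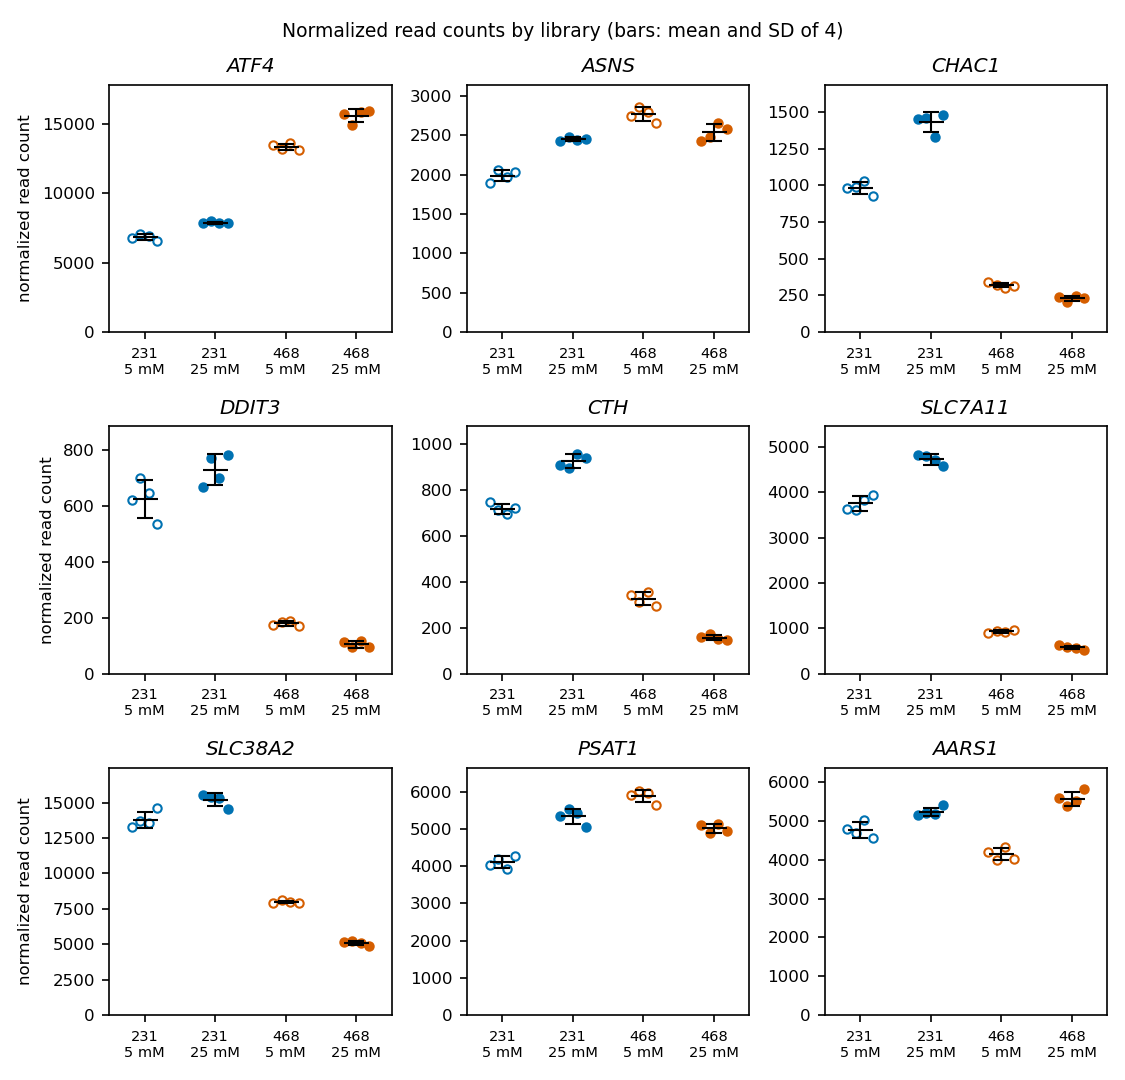
Normalized read counts of 9 members in each library of MDA-MB-231 (blue) and MDA-MB-468 (orange) at 5 mM (open) and 25 mM (filled) glucose, with the mean and SD of 4 in black and each axis starting at 0. ATF4 and AARS1 are higher at 25 mM in both lines, and the other 7 have a higher mean at 25 mM in MDA-MB-231 and a lower one in MDA-MB-468, with overlap of the groups for DDIT3 and SLC38A2 in MDA-MB-231.

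CHAC1 (ENSG00000128965, chr15:41245160-41248710, plus strand) encodes an enzyme that degrades glutathione and is a target of ATF4 and CHOP. Its counts were 978, 988, 1028 and 925 in low-glucose and 1449.8, 1459, 1326 and 1477 in high-glucose MDA-MB-231. In MDA-MB-468 they were 341, 321, 303 and 313 in low and 240.1, 206, 246 and 229 in high glucose. The groups were apart in both lines but in opposite order. CHAC1 rose by 0.54 ± 0.045 (± SE, adjusted p = 3.18e-07 by limma) log2 units in MDA-MB-231 and fell by 0.47 ± 0.072 (± SE, adjusted p = 4.71e-05 by limma) in MDA-MB-468, a difference of responses of -1.01 ± 0.080 (± SE, adjusted p = 8.29e-08 by limma).

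DDIT3 (ENSG00000175197, chr12:57910371-57915520, minus strand) encodes CHOP, the transcription factor that drives late stress responses and cell death. Its counts were 623, 699.7, 646 and 536 in low-glucose and 668, 772, 702 and 784 in high-glucose MDA-MB-231, and these groups overlapped. In MDA-MB-468 they were 176, 184, 189.9 and 172 in low and 112, 95, 117 and 93.6 in high glucose, with no overlap. DDIT3 fell by 0.79 ± 0.098 (± SE, adjusted p = 5.35e-06 by limma) log2 units in MDA-MB-468, and the responses differed by -1.02 ± 0.12 (± SE, adjusted p = 8.51e-06 by limma). In MDA-MB-231 it rose by 0.23 ± 0.072 (± SE, adjusted p = 0.0406 by limma), but this adjusted p ranged from 0.0157 to 0.122 over 19 alternatives and was above 0.05 in 9 of them, among them the fits without low-glucose replicate 1 or 4 or high-glucose replicate 2, 3 or 4. DDIT3 and MARS1 lie on opposite strands and share 355 bases of exon, and whether the counting used strand is not given in the sources used here, so reads of the 2 may be mixed.

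SESN2, a sestrin that restrains mTORC1 and senses leucine, moved in the same way. Its counts were 958, 979, 1036 and 883 in low-glucose and 1215, 1169, 1170.3 and 1157 in high-glucose MDA-MB-231, and 429, 407, 431 and 425 in low and 337, 343, 326 and 314 in high glucose in MDA-MB-468. The groups did not overlap in either line. It rose by 0.29 ± 0.047 (± SE, adjusted p = 0.000355 by limma) in MDA-MB-231, fell by 0.36 ± 0.056 (± SE, adjusted p = 5.88e-05 by limma) in MDA-MB-468, and the responses differed by -0.65 ± 0.064 (± SE, adjusted p = 9.16e-07 by limma).

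DDIT4, TRIB3, NUPR1 and CEBPB rose in both lines. DDIT4 encodes another inhibitor of mTORC1, and its counts went from 2405, 2349, 2398 and 2315 to 3111, 3146, 3119.9 and 3142 in MDA-MB-231 and from 2626, 2488, 2575 and 2439 to 2734, 2757, 3019 and 2835 in MDA-MB-468. It rose by 0.40 ± 0.030 (± SE, adjusted p = 1.2e-07 by limma) and 0.16 ± 0.037 (± SE, adjusted p = 0.00177 by limma). The pseudokinase TRIB3, which binds ATF4 and holds it back, rose by 0.38 ± 0.034 (± SE, adjusted p = 6.05e-07 by limma) in MDA-MB-231, from 3034 ± 114 to 3953 ± 98.1 normalized counts (mean ± SD, n = 4), and by 0.12 ± 0.031 (± SE, adjusted p = 0.00311 by limma) in MDA-MB-468, from 4558 ± 55.2 to 4972 ± 188. Both rose less in MDA-MB-468, with differences of -0.24 ± 0.044 (± SE, adjusted p = 0.000466 by limma) for DDIT4 and -0.26 ± 0.043 (± SE, adjusted p = 0.000225 by limma) for TRIB3.

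NUPR1, a small chromatin-associated stress protein, had the largest log2 difference among the members in MDA-MB-231. Its counts there were 186, 178, 218 and 159 in low and 275, 297, 281 and 279.6 in high glucose, without overlap. In MDA-MB-468, with more of it, they were 1835, 1809, 1705 and 1692 in low and 1949, 1878, 1934 and 2034 in high glucose. NUPR1 rose by 0.62 ± 0.086 (± SE, adjusted p = 8.16e-05 by limma) in MDA-MB-231 and by 0.15 ± 0.038 (± SE, adjusted p = 0.00449 by limma) in MDA-MB-468, and the responses differed by -0.47 ± 0.096 (± SE, adjusted p = 0.00116 by limma). CEBPB, a C/EBP partner of ATF4, rose by 0.21 ± 0.047 (± SE, adjusted p = 0.00479 by limma) and 0.28 ± 0.045 (± SE, adjusted p = 8.26e-05 by limma), and the difference of these responses, 0.068 ± 0.066 (± SE, adjusted p = 0.486 by limma), was not called.

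The remaining regulators passed the test for a rise in neither line. CEBPG, the partner with which ATF4 forms many of its heterodimers, was at 1205 ± 50.4 in low-glucose and 1292 ± 60 in high-glucose MDA-MB-231, a difference of 0.10 ± 0.044 (± SE, adjusted p = 0.144 by limma) that passed the threshold in 1 of 19 alternatives, without low-glucose replicate 4 (adjusted p = 0.0465, range over the alternatives 0.0465 to 0.364). It fell by 0.17 ± 0.037 (± SE, adjusted p = 0.000933 by limma) in MDA-MB-468, from 1497 ± 43.8 to 1326 ± 35.3. STC2, a secreted glycoprotein, had only 8 to 29 reads in any MDA-MB-231 library, with a difference of -0.064 ± 0.35 (± SE, adjusted p = 0.934 by limma). In MDA-MB-468 its counts were 2735, 2809, 2574 and 2816 in low and 1778, 1729, 1785 and 1773 in high glucose, and it fell by 0.63 ± 0.035 (± SE, adjusted p = 6.74e-10 by limma). The difference of its responses was not called and had a wide error, at -0.56 ± 0.38 (± SE, adjusted p = 0.297 by limma).

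ATF3 and ATF5, transcription factors induced downstream of ATF4, passed the test in neither line. ATF3 counts were 134 to 154 and 96.1 to 154 in low and high glucose in MDA-MB-231 and 232 to 252 and 215 to 245 in MDA-MB-468, with differences of -0.18 ± 0.12 (± SE, adjusted p = 0.354 by limma) and -0.065 ± 0.070 (± SE, adjusted p = 0.475 by limma). High-glucose replicate 4 of MDA-MB-231, at 96.1, was the lowest. ATF5 differed by -0.060 ± 0.048 (± SE, adjusted p = 0.467 by limma) in MDA-MB-231 and 0.086 ± 0.073 (± SE, adjusted p = 0.358 by limma) in MDA-MB-468. Its exons overlap those of NUP62 on the other strand by 565 bases.

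**Figure D3:**
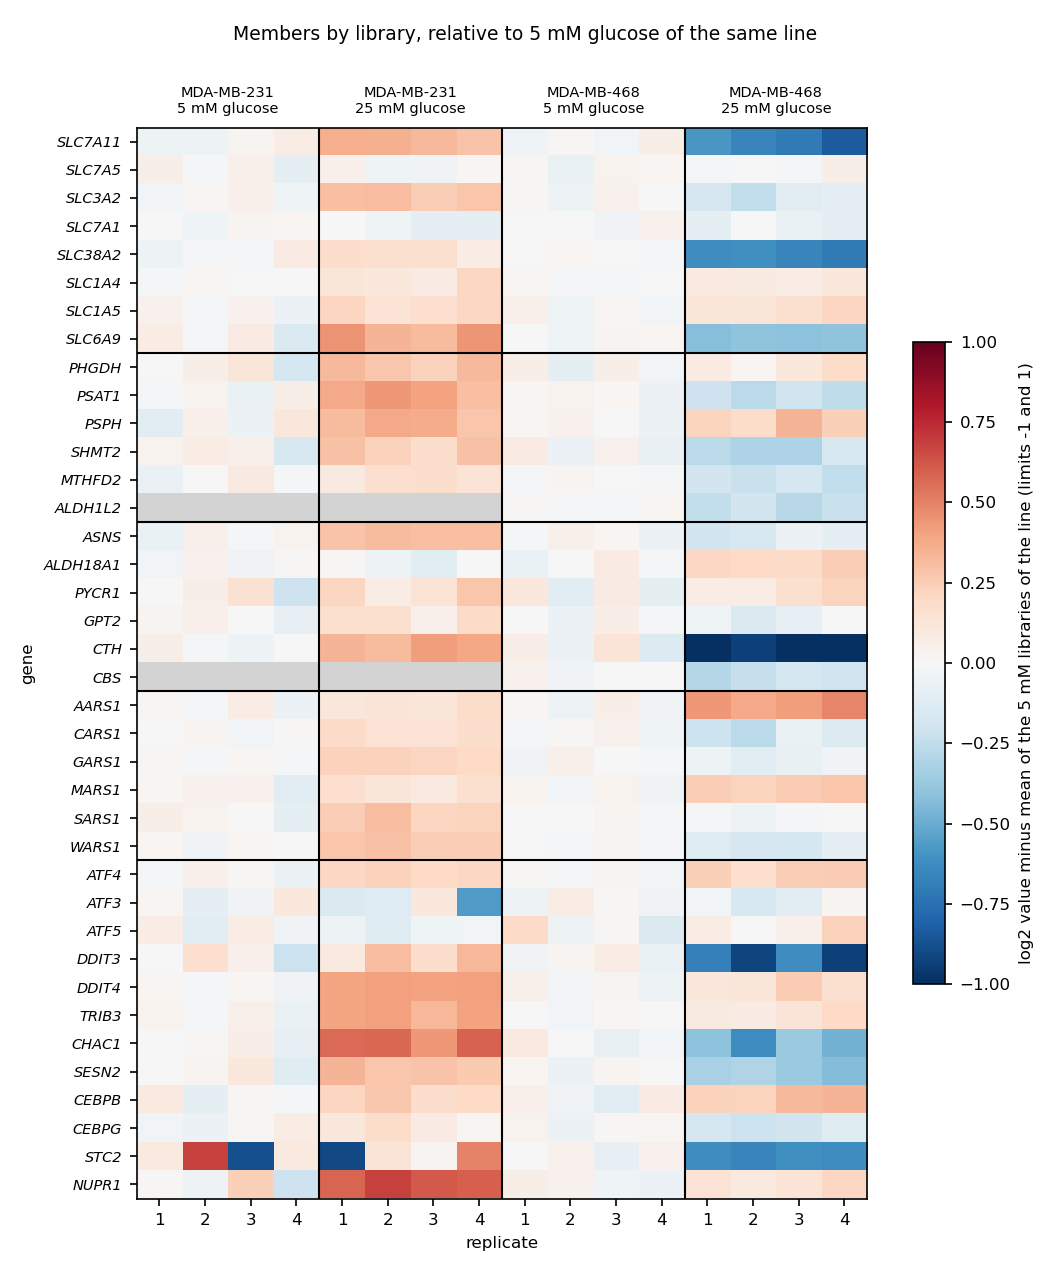
Each member (row) in each of the 16 libraries (column) as log2 of the normalized count plus 1, minus the mean of the 4 libraries of the same line at 5 mM glucose, with red for higher, blue for lower and colors capped at -1 and 1. Grey marks ALDH1L2 and CBS in MDA-MB-231, which had at most 5 reads. The 4 libraries of each 25 mM group share their color in most rows.

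The same values were also summarized by library, which is no second test of the pattern. The low-glucose libraries of each line were themselves the reference. The median over members of log2 values relative to low glucose was 0.18 to 0.23 in the 4 high-glucose libraries of MDA-MB-231, and -0.032 to 0.022 in the low-glucose ones. In MDA-MB-468 it was -0.15 to -0.061 in high glucose and -0.019 to 0.018 in low glucose. The value of -0.15 was that of high-glucose replicate 2. The same medians over all genes lay between -0.0021 and 0.013 in all 16 libraries.

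Among the transporters, 6 of 8 rose in MDA-MB-231, while 2 rose and 4 fell in MDA-MB-468. Of all genes, 5.71% rose in the former and 24.9% rose and 22.7% fell in the latter, so the share of transporters that rose in MDA-MB-468 was that of all genes. SLC7A11 (ENSG00000151012, chr4:139085251-139163503, minus strand), the subunit of the cystine-glutamate exchanger that imports cystine, differed most between the lines. Its counts were 3621, 3618, 3833 and 3946 in low-glucose and 4826, 4797, 4703 and 4571 in high-glucose MDA-MB-231. In MDA-MB-468 they were 902, 938, 915 and 968 in low and 620.2, 588, 570.0 and 522 in high glucose. SLC7A11 rose by 0.33 ± 0.034 (± SE, adjusted p = 3.24e-06 by limma) in MDA-MB-231 and fell by 0.70 ± 0.053 (± SE, adjusted p = 2.01e-08 by limma) in MDA-MB-468, a difference of -1.03 ± 0.063 (± SE, adjusted p = 6.22e-09 by limma). An antisense gene overlaps 865 bases of its exons.

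SLC38A2 (ENSG00000134294, chr12:46751971-46766556, minus strand) carries small neutral amino acids into the cell with sodium. In MDA-MB-231 its counts were 13270.4, 13678, 13588 and 14589 in low and 15545, 15366, 15351 and 14535 in high glucose, with an overlap of 1 library from each group. For MDA-MB-468 they were 7938, 8090.1, 7956 and 7935 in low and 5179.6, 5212, 5053 and 4902 in high glucose, far apart. It rose by 0.14 ± 0.032 (± SE, adjusted p = 0.00585 by limma) in the former, fell by 0.65 ± 0.028 (± SE, adjusted p = 4.09e-11 by limma) in the latter, and the responses differed by -0.79 ± 0.041 (± SE, adjusted p = 1.21e-09 by limma).

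SLC6A9, a glycine transporter, had counts of 1492, 1401, 1502 and 1285 in low-glucose and 1937, 1795, 1761 and 1926 in high-glucose MDA-MB-231. In MDA-MB-468 the order was turned, with 2298, 2232, 2347 and 2326 in low and 1709, 1745, 1733 and 1745 in high glucose. It rose by 0.39 ± 0.050 (± SE, adjusted p = 3.32e-05 by limma), fell by 0.41 ± 0.032 (± SE, adjusted p = 2.73e-08 by limma) and differed in response by -0.80 ± 0.062 (± SE, adjusted p = 7.11e-08 by limma). CCDC24 on the other strand overlaps 413 bases of its exons. SLC3A2, the heavy chain that brings SLC7A11 and SLC7A5 to the cell surface, rose by 0.28 ± 0.030 (± SE, adjusted p = 4.46e-06 by limma) in MDA-MB-231, from 4999.9 ± 146 to 6074 ± 112, and fell by 0.16 ± 0.035 (± SE, adjusted p = 0.00159 by limma) in MDA-MB-468, from 5155 ± 139 to 4631 ± 219. The difference of responses was -0.44 ± 0.046 (± SE, adjusted p = 1.77e-06 by limma).

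The exchangers of neutral amino acids SLC1A4 and SLC1A5, the second being a main route for glutamine, rose in both lines. SLC1A5 rose by 0.18 ± 0.031 (± SE, adjusted p = 0.000554 by limma) in MDA-MB-231 (7949.8 ± 275 to 9019 ± 234) and by 0.15 ± 0.030 (± SE, adjusted p = 0.000431 by limma) in MDA-MB-468 (11574 ± 346 to 12878 ± 383). SLC1A4 rose by 0.13 ± 0.039 (± SE, adjusted p = 0.0325 by limma) and 0.093 ± 0.031 (± SE, adjusted p = 0.0211 by limma), with the groups apart in both lines. The first of these calls was lost in 7 of 19 alternatives (adjusted p 0.0155 to 0.118), among them without low-glucose replicate 1, 2 or 3 or high-glucose replicate 1, 2 or 4. The second was lost in 4 of 19 (adjusted p 0.00111 to 0.0576), among them without low-glucose replicate 3 or high-glucose replicate 4.

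SLC7A5, the light chain that imports leucine and other large neutral amino acids, differed by only -0.0034 ± 0.035 (± SE, adjusted p = 0.967 by limma) in MDA-MB-231 and 0.0056 ± 0.030 (± SE, adjusted p = 0.896 by limma) in MDA-MB-468. SLC7A1, which imports arginine and lysine, differed by -0.058 ± 0.032 (± SE, adjusted p = 0.251 by limma) and -0.063 ± 0.032 (± SE, adjusted p = 0.121 by limma). In MDA-MB-468 the SLC7A1 difference was called lower in 1 of 19 alternatives, without high-glucose replicate 2 (adjusted p = 0.0449, range 0.0449 to 0.373).

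Of the serine and one-carbon enzymes, all 5 tested rose in MDA-MB-231 (background 5.71%), while in MDA-MB-468 2 rose and 4 fell (background 24.9% and 22.7%). The serine pathway itself divided in MDA-MB-468. PSAT1 (ENSG00000135069, chr9:80912041-80945009, plus strand), the aminotransferase of the middle step, had counts of 4044, 4204, 3920.2 and 4269 in low-glucose and 5349.8, 5539, 5422 and 5068 in high-glucose MDA-MB-231, against 5928, 6029, 5956 and 5655 in low and 5114, 4898, 5123 and 4950.4 in high glucose in MDA-MB-468. The groups were apart in both lines. PSAT1 rose by 0.38 ± 0.035 (± SE, adjusted p = 9.04e-07 by limma), fell by 0.23 ± 0.030 (± SE, adjusted p = 8.15e-06 by limma), and the responses differed by -0.61 ± 0.046 (± SE, adjusted p = 4.84e-08 by limma).

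PHGDH, which catalyzes the entry step of serine synthesis, rose by 0.29 ± 0.054 (± SE, adjusted p = 0.00137 by limma) in MDA-MB-231, from 1067, 1115, 1163 and 945 to 1338, 1287, 1257 and 1336. MDA-MB-468, with 12.4 times as much of it in low glucose, went from 13820.1, 12451, 13866 and 13028 to 14049, 13483, 14314 and 15098, and these groups overlapped. The rise there of 0.099 ± 0.038 (± SE, adjusted p = 0.0426 by limma) was lost in 10 of 19 alternatives (adjusted p 0.012 to 0.146), among them without low-glucose replicate 2 or 4 or high-glucose replicate 1, 3 or 4. The difference of responses was -0.19 ± 0.076 (± SE, adjusted p = 0.0738 by limma), and was called in 6 of 27 alternatives (adjusted p 0.0221 to 0.137), among them edgeR, DESeq2 and the fits without MDA-MB-231 low-glucose replicate 3, MDA-MB-468 low-glucose replicate 2 or MDA-MB-468 high-glucose replicate 4. PSPH, the phosphatase of the closing step, rose by 0.34 ± 0.050 (± SE, adjusted p = 0.000138 by limma) in MDA-MB-231 (886 ± 61.4 to 1117 ± 35.5) and by 0.25 ± 0.035 (± SE, adjusted p = 2.06e-05 by limma) in MDA-MB-468 (5638 ± 174 to 6696 ± 314). A pseudogene, PSPHP1, is a separate row of the table.

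Of the mitochondrial folate enzymes among the members, SHMT2 and MTHFD2 rose in MDA-MB-231 and fell in MDA-MB-468. SHMT2, which splits serine into glycine and a one-carbon unit, rose from 5809 ± 412 to 6881 ± 266 in MDA-MB-231, by 0.25 ± 0.044 (± SE, adjusted p = 0.000841 by limma), and fell from 5941 ± 311 to 4951 ± 242 in MDA-MB-468, by 0.26 ± 0.040 (± SE, adjusted p = 4.58e-05 by limma). MTHFD2, which oxidizes the folate-bound unit, rose by 0.14 ± 0.041 (± SE, adjusted p = 0.0259 by limma) and fell by 0.20 ± 0.030 (± SE, adjusted p = 3.01e-05 by limma). Its call in MDA-MB-231 was lost in 5 of 19 alternatives (adjusted p 0.00936 to 0.0912), namely without low-glucose replicate 1 or 2 or high-glucose replicate 2, 3 or 4, and SLC4A5 on the other strand overlaps 1324 bases of its exons. The responses differed by -0.51 ± 0.071 (± SE, adjusted p = 3.53e-05 by limma) for SHMT2 and -0.35 ± 0.046 (± SE, adjusted p = 1.93e-05 by limma) for MTHFD2. ALDH1L2, a mitochondrial dehydrogenase that oxidizes the formyl group of folate to carbon dioxide, was tested only in MDA-MB-468, where it fell by 0.23 ± 0.040 (± SE, adjusted p = 0.000152 by limma), from 927, 915, 908 and 931 to 774, 811, 759 and 787, without overlap. Its difference of responses was -0.70 ± 0.42 (± SE, adjusted p = 0.237 by limma), and was called only without MDA-MB-231 high-glucose replicate 1 (adjusted p = 0.00578, range over the 27 alternatives 0.00578 to 0.426), and it rests on at most 5 reads in any MDA-MB-231 library.

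CTH (ENSG00000116761, chr1:70876901-70905534, plus strand), the cystathionine lyase that releases cysteine in the transsulfuration pathway, showed the largest difference of responses among the members. Its counts were 748, 714, 694 and 722 in low-glucose and 909, 898, 959 and 943 in high-glucose MDA-MB-231. The MDA-MB-468 values were 341, 313, 356 and 296 in low and 158, 170.4, 152 and 147 in high glucose. Each high-glucose library of MDA-MB-468 lay below each low-glucose one, and the reverse held in MDA-MB-231. CTH rose by 0.37 ± 0.044 (± SE, adjusted p = 1.69e-05 by limma) in MDA-MB-231 and fell by 1.05 ± 0.079 (± SE, adjusted p = 1.92e-08 by limma) in MDA-MB-468, to 0.483 of the low-glucose level, with a difference of -1.42 ± 0.082 (± SE, adjusted p = 3.29e-09 by limma). CBS, the synthase that makes the substrate of CTH, had 0 reads in all 8 MDA-MB-231 libraries. GRCh38 holds a near-identical copy of it, CBSL, so its counts are uncertain if that build was used. In MDA-MB-468 its counts were 4249.8, 4024, 4138 and 4123 in low and 3394, 3519.7, 3665 and 3605 in high glucose, and it fell by 0.22 ± 0.032 (± SE, adjusted p = 2.53e-05 by limma).

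ASNS (ENSG00000070669, chr7:97480989-97501854, minus strand), asparagine synthetase and a standard readout of ATF4 activity, had counts of 1897, 2056, 1963 and 2033 in low-glucose and 2419.9, 2479, 2444 and 2452 in high-glucose MDA-MB-231. Those of MDA-MB-468 were 2746, 2862, 2799.9 and 2660.5 in low and 2422, 2479.7, 2654 and 2584 in high glucose. The groups did not overlap in either line, although in MDA-MB-468 the gap was small, from 2654 to 2660. ASNS rose by 0.30 ± 0.034 (± SE, adjusted p = 9.76e-06 by limma), fell by 0.13 ± 0.036 (± SE, adjusted p = 0.00824 by limma), and the responses differed by -0.43 ± 0.046 (± SE, adjusted p = 2.65e-06 by limma).

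The proline enzymes rose in MDA-MB-468 and passed the test in no direction in MDA-MB-231. ALDH18A1, which starts proline synthesis from glutamate, was at 1683 ± 44.6 and 1639 ± 65.6 in MDA-MB-231, with a difference of -0.038 ± 0.039 (± SE, adjusted p = 0.578 by limma), and rose by 0.21 ± 0.040 (± SE, adjusted p = 0.000356 by limma) in MDA-MB-468, from 1146 ± 49.4 to 1325 ± 25.6. It was 1 of the 2 members with a higher response in MDA-MB-468, by 0.25 ± 0.050 (± SE, adjusted p = 0.00112 by limma). PYCR1, which completes proline, differed by 0.18 ± 0.059 (± SE, adjusted p = 0.056 by limma) in MDA-MB-231, and was called higher in 6 of 19 alternatives (adjusted p 0.0142 to 0.164), among them edgeR and the fits without low-glucose replicate 3 or high-glucose replicate 2. In MDA-MB-468 it rose by 0.13 ± 0.050 (± SE, adjusted p = 0.0382 by limma), a call lost in 7 of 19 alternatives (adjusted p 0.0138 to 0.125), among them without low-glucose replicate 2 or 4 or high-glucose replicate 3 or 4. An antisense gene overlaps 450 bases of its exons.

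GPT2, the mitochondrial alanine aminotransferase, rose by 0.14 ± 0.046 (± SE, adjusted p = 0.048 by limma) in MDA-MB-231, from 853, 869, 843 and 791 to 937, 937, 870.3 and 955. This call was lost in 11 of 19 alternatives (adjusted p 0.0319 to 0.132), among them DESeq2 and the fits without any 1 of the 4 low-glucose replicates or high-glucose replicate 1, 2 or 4. In MDA-MB-468 it differed by -0.067 ± 0.037 (± SE, adjusted p = 0.146 by limma), and the responses differed by -0.21 ± 0.057 (± SE, adjusted p = 0.0103 by limma).

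All 6 aminoacyl-tRNA synthetases of the list rose in MDA-MB-231 (background 5.71%), with non-overlapping groups, by 0.14 to 0.26 on the log2 scale. In MDA-MB-468, 2 rose and 2 fell (background 24.9% and 22.7%). AARS1 (ENSG00000090861, chr16:70285886-70323610, minus strand), the alanyl-tRNA synthetase, had counts of 4789, 4684, 5019 and 4558 in low-glucose and 5158, 5193, 5185 and 5397 in high-glucose MDA-MB-231, and 4202, 3993, 4328 and 4028 in low and 5580.2, 5373, 5517 and 5810.2 in high glucose in MDA-MB-468. The groups were apart in both lines and farther apart in MDA-MB-468. It rose by 0.14 ± 0.033 (± SE, adjusted p = 0.00891 by limma) and 0.43 ± 0.034 (± SE, adjusted p = 2.93e-08 by limma), and the responses differed by 0.29 ± 0.047 (± SE, adjusted p = 0.000149 by limma).

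MARS1, the methionyl-tRNA synthetase, also rose in both lines, by 0.14 ± 0.036 (± SE, adjusted p = 0.0147 by limma) in MDA-MB-231 and 0.25 ± 0.029 (± SE, adjusted p = 2.53e-06 by limma) in MDA-MB-468. The former was lost only without high-glucose replicate 1 (adjusted p = 0.0504, range over 19 alternatives 0.00144 to 0.0504). Its difference of responses was 0.11 ± 0.044 (± SE, adjusted p = 0.0617 by limma), and was called in 2 of 27 alternatives, with DESeq2 and without MDA-MB-231 low-glucose replicate 4 (adjusted p 0.00361 to 0.302 over all). MARS1 shares 355 bases of exon with DDIT3 and 519 with ARHGAP9.

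WARS1, the tryptophanyl-tRNA synthetase, rose from 5416 ± 95.2 to 6499 ± 109 in MDA-MB-231, by 0.26 ± 0.028 (± SE, adjusted p = 4.05e-06 by limma), and fell from 2863 ± 43 to 2599 ± 69.3 in MDA-MB-468, by 0.14 ± 0.031 (± SE, adjusted p = 0.00137 by limma). CARS1, for cysteine, rose by 0.16 ± 0.031 (± SE, adjusted p = 0.0014 by limma) and fell by 0.17 ± 0.043 (± SE, adjusted p = 0.00319 by limma). GARS1, for glycine, rose by 0.22 ± 0.026 (± SE, adjusted p = 1.48e-05 by limma) in MDA-MB-231 and differed by -0.069 ± 0.029 (± SE, adjusted p = 0.062 by limma) in MDA-MB-468, where 6 of 19 alternatives called it lower, edgeR and DESeq2 included (adjusted p 0.000575 to 0.157). SARS1, for serine, rose by 0.25 ± 0.034 (± SE, adjusted p = 7.19e-05 by limma) in MDA-MB-231 and differed by -0.020 ± 0.027 (± SE, adjusted p = 0.572 by limma) in MDA-MB-468. All of these had a lower response in MDA-MB-468, with differences of -0.40 ± 0.033 (± SE, adjusted p = 1.21e-07 by limma) for WARS1, -0.34 ± 0.050 (± SE, adjusted p = 6.74e-05 by limma) for CARS1, -0.29 ± 0.032 (± SE, adjusted p = 3.71e-06 by limma) for GARS1 and -0.27 ± 0.041 (± SE, adjusted p = 9.09e-05 by limma) for SARS1. The exons of WARS1 overlap those of WDR25 by 287 bases and those of GARS1 overlap GARS1-DT by 312.

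Levels of members within a group were compared per kilobase of transcript, with the length of an annotated transcript for each gene. The ranks depend on these lengths, of which that of SLC7A11 was 9645 bases. In MDA-MB-231 in low glucose ATF4 was highest, at 4812 normalized counts per kilobase, followed by GARS1 at 3155 and SLC38A2 at 2874. In MDA-MB-468 ATF4 was again highest, at 9403 in low and 10999 in high glucose, followed by PHGDH at 7123 and 7629 and by SLC1A5 at 4016 and 4468. PHGDH stood at rank 21 of 38 in low-glucose MDA-MB-231, at 575. SLC7A11 was last of the 38 in MDA-MB-468, at 96.5 in low and 59.6 in high glucose, and at rank 27 in low-glucose MDA-MB-231, at 389.

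Between the lines most members differed, as most genes did. In low glucose, 21 members were higher in MDA-MB-468 (background 45.0%) and 15 lower (background 40.4%). In high glucose, 16 were higher (background 44.6%) and 20 lower (background 40.6%). With a difference of at least 1 log2 unit, 8 were higher (background 26.0%) and 6 lower (background 21.1%) in low glucose, and 8 higher (background 24.9%) and 8 lower (background 20.9%) in high glucose. As shares of the 38, these counts lie on both sides of the background. For 7 members a small difference changed sign under an alternative. In low glucose, SLC7A5 (-0.21 ± 0.034) went to 0.0080 and GARS1 (-0.10 ± 0.023) to 0.12 with quantile normalization, and SLC3A2 (0.044 ± 0.032) went to -0.070, DDIT4 (0.097 ± 0.031) to -0.028 and SHMT2 (0.034 ± 0.050) to -0.055 with a correction for transcript length. SHMT2 also went to -0.019 without MDA-MB-231 low-glucose replicate 4. GARS1 was called in both fits, in opposite directions (with quantile normalization, adjusted p = 5.7e-05 by limma). SLC3A2 was called lower with the correction for length (adjusted p = 0.0307 by limma). In high glucose, ASNS (0.049 ± 0.033) went to -0.0091 with the correction for length, and PSAT1 (-0.089 ± 0.032) went to 0.031 with quantile normalization, and its call was also lost without MDA-MB-231 high-glucose replicate 2 (adjusted p = 0.0607, range over 27 alternatives 0.000173 to 0.366).

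**Figure D4:**
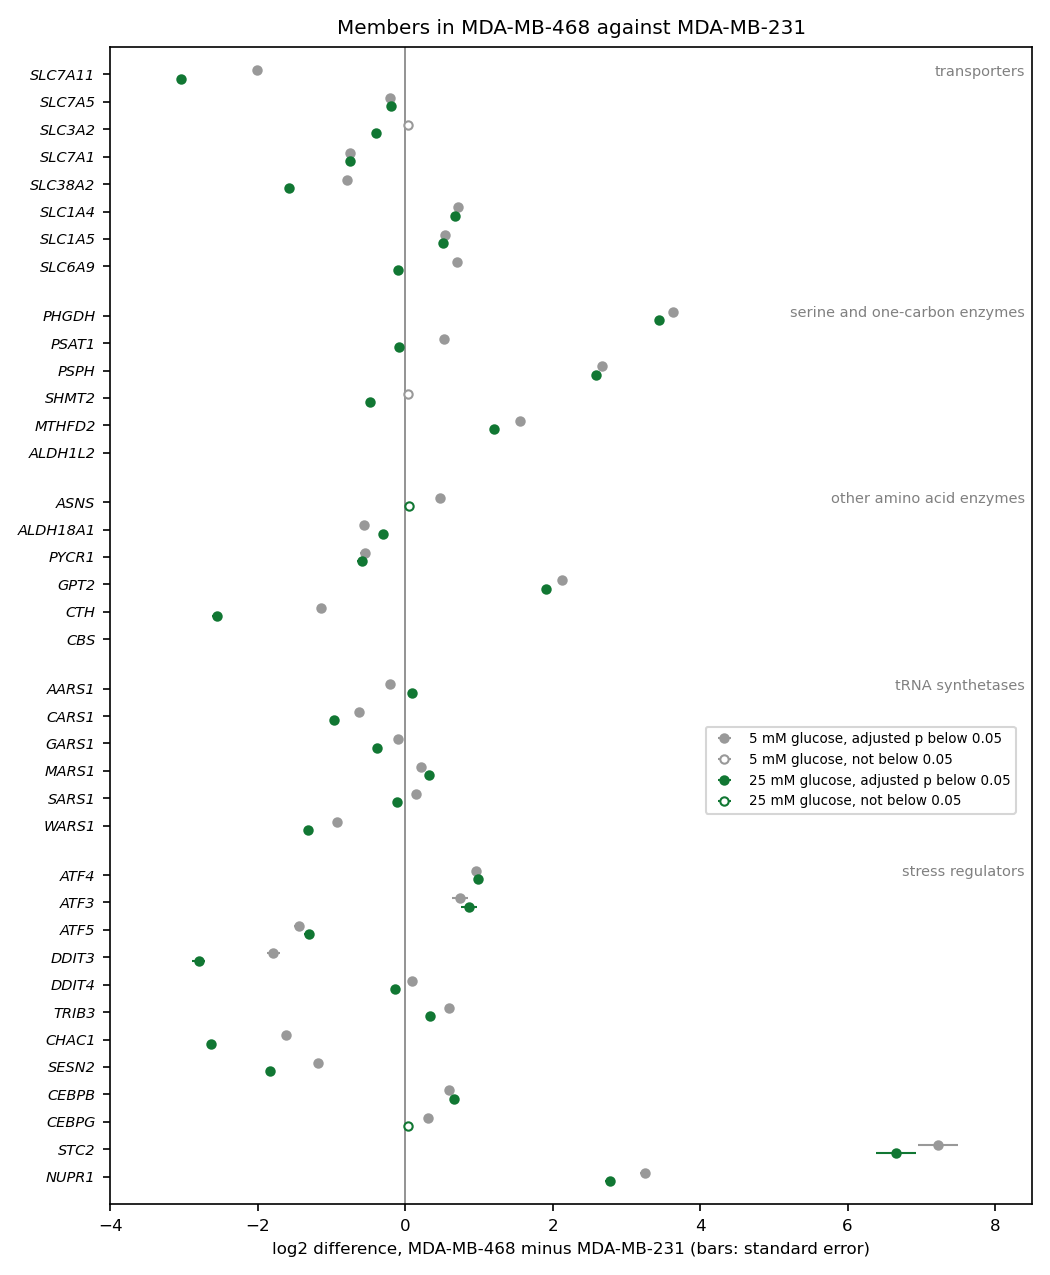
Log2 difference of MDA-MB-468 minus MDA-MB-231 for each member at 5 mM (grey) and 25 mM (green) glucose, with bars for the standard error and filled points for a limma adjusted p below 0.05. CBS and ALDH1L2, at or near 0 reads in MDA-MB-231, are left out. STC2, PHGDH, NUPR1 and PSPH lie farthest to the right at both levels. SLC7A11, DDIT3 and CHAC1 lie farthest to the left, followed by ATF5 at 5 mM and CTH at 25 mM.

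The members that were higher in MDA-MB-468 included the enzymes at the entry and the end of serine synthesis. PHGDH was 12.4 times as high as in MDA-MB-231 in low glucose (13291 ± 679 against 1072 ± 93.7 normalized counts, limma adjusted p = 1.26e-19) and 10.9 times in high glucose. PSPH was 6.37 and 5.99 times as high, GPT2 4.35 and 3.76 times, MTHFD2 2.94 and 2.31 times, and NUPR1 9.51 and 6.86 times. ATF4 itself was 1.95 and 1.98 times as high. CBS was at least 1366 times as high in low glucose and at least 1191 times in high glucose, taking 3 reads in each MDA-MB-231 library as the floor. For ALDH1L2, with 10 reads in the 4 low-glucose and 16 in the 4 high-glucose MDA-MB-231 libraries, the ratio was 436 (exact 95% counting interval 237 to 909) in low and 213 (131 to 373) in high glucose. STC2 was 150 and 101 times as high, over means of 18.6 ± 7.94 and 17.5 ± 6.6 in MDA-MB-231.

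SLC7A11, DDIT3 and CHAC1 had the lowest differences of MDA-MB-468 against MDA-MB-231 at both glucose levels. SLC7A11 was at 0.248 of its MDA-MB-231 level in low and 0.122 in high glucose (limma adjusted p = 3.2e-17 and 1.25e-19). CHAC1 was at 0.327 and 0.162, DDIT3 at 0.29 and 0.143, SESN2 at 0.44 and 0.281, and CTH at 0.454 and 0.17. ATF5 was at 0.367 and 0.406, and WARS1 at 0.529 and 0.4. SLC6A9 changed sides with glucose, at 1.62 times the MDA-MB-231 level in low and 0.935 in high glucose, the latter call being lost in 15 of 27 alternatives (adjusted p 0.00705 to 0.678), among them without 1 of MDA-MB-231 low-glucose replicate 2, MDA-MB-231 high-glucose replicate 1 or 4 or any MDA-MB-468 replicate. AARS1 changed sides the other way, at 0.869 and 1.06, the latter lost in 3 of 27 alternatives (adjusted p 1.08e-05 to 0.135), among them without MDA-MB-468 high-glucose replicate 4 (adjusted p = 0.0733).

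Other genes of the pathway were counted from lists that do not overlap the members, to be read against 5.71% of all genes higher and 9.37% lower in MDA-MB-231, and 24.9% and 22.7% in MDA-MB-468. Of 16 genes for the eIF2 kinases and the eIF2 cycle, 1 rose and 0 fell in MDA-MB-231 (limma, with 1 lower at an unadjusted p below 0.05 and 0 lower with edgeR or DESeq2), against 5 higher and 5 lower in MDA-MB-468. These counts lie near the shares of all genes. EIF2AK3, the kinase PERK of the endoplasmic reticulum, was the one that rose in MDA-MB-231, from 715 ± 25 to 815 ± 47.1 normalized counts, by 0.19 ± 0.050 (SE, adjusted p = 0.0165). In MDA-MB-468 the largest changes were in PPP1R15A, the stress-induced phosphatase subunit GADD34 and itself a target of ATF4 and CHOP, which fell from 912 ± 23.2 to 519 ± 11.7, by 0.81 ± 0.043 (SE, adjusted p = 4.5e-10), and in EIF2B3, a subunit of the eIF2 exchange factor, which rose by 0.57 ± 0.067 (SE, adjusted p = 2.62e-06).

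Of 19 other ATF4 targets tested, 11 rose and 2 fell in MDA-MB-231, and 2 rose and 8 fell in MDA-MB-468. Their medians were 0.23 and -0.20, against 0.22 and -0.068 for the members. This list was also chosen with earlier results of these data known, so it is no independent test of the members' pattern. ADM2, a secreted peptide, rose by 0.52 ± 0.064 (SE, adjusted p = 2.12e-05) and PCK2, the mitochondrial phosphoenolpyruvate carboxykinase, by 0.38 ± 0.055 (SE, adjusted p = 0.000122) in MDA-MB-231. In MDA-MB-468 CCPG1, a receptor for autophagy of the endoplasmic reticulum, rose by 0.45 ± 0.050 (SE, adjusted p = 1.78e-06). FGF21, a secreted stress hormone, was at 8.21 ± 3.11 to 0.951 ± 0.703 normalized counts in MDA-MB-468, near the floor, so that no fold is given.

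Synthetases outside the list were counted apart from the 6 within it. Of 14 other cytosolic synthetases tested in MDA-MB-231, 1 rose and 0 fell (limma, with 4 higher and 1 lower at an unadjusted p below 0.05, 1 and 0 with edgeR, and 2 and 0 with DESeq2). Of 17 mitochondrial synthetases, 0 rose and 0 fell (limma, with 0 at an unadjusted p below 0.05 and 0 with edgeR or DESeq2). IARS1, for isoleucine, was the one that rose, by 0.22 ± 0.026 (SE, adjusted p = 1.6e-05). No test compared these lists with each other, and the division among them was made with earlier results of these data known. In MDA-MB-468 4 rose and 5 fell among the cytosolic ones, LARS1, for leucine, falling by 0.39 ± 0.030 (SE, adjusted p = 2.28e-08) and VARS1, for valine, rising by 0.33 ± 0.037 (SE, adjusted p = 1.33e-06). The cytosolic counts lie near the shares of all genes (24.9% and 22.7%). Among the mitochondrial ones 7 rose and 3 fell there, AARS2 rising from 177 ± 14.7 to 388 ± 18.3, by 1.13 ± 0.074 (SE, adjusted p = 4.1e-09), and TARS2 by 0.63 ± 0.075 (SE, adjusted p = 3.41e-06).

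Of 12 other genes of one-carbon and glycine metabolism tested in MDA-MB-231, 1 rose and 3 fell, and of 11 in MDA-MB-468, 2 rose and 4 fell. The MDA-MB-468 counts lie near the shares of all genes (24.9% and 22.7%). In MDA-MB-231, 5.71% of all genes rose and 9.37% fell. TYMS, the thymidylate synthase, fell by 0.65 ± 0.034 (SE, adjusted p = 1.9e-09) in MDA-MB-231. The largest changes in MDA-MB-468 were in MTHFS and SHMT1, cytosolic folate enzymes, of which MTHFS rose by 0.34 ± 0.081 (SE, adjusted p = 0.00276) and SHMT1 fell by 0.32 ± 0.038 (SE, adjusted p = 3.63e-06). Of 12 chaperones and folding genes of the endoplasmic reticulum, 5 rose and 0 fell in MDA-MB-231 (limma, with 0 lower at an unadjusted p below 0.05 and 0 with edgeR or DESeq2), and 6 rose and 2 fell in MDA-MB-468. HERPUD1 and DNAJB9, which serve the disposal and folding of misfolded proteins, rose by 0.33 ± 0.032 (SE, adjusted p = 1.51e-06) and 0.31 ± 0.043 (SE, adjusted p = 8.49e-05) in MDA-MB-231, while in MDA-MB-468 SDF2L1 rose by 0.59 ± 0.092 (SE, adjusted p = 6.04e-05) and EDEM1 fell by 0.38 ± 0.057 (SE, adjusted p = 4e-05).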

How the data were processed

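RNA-Seq libraries of 16 samples, 4 for each line and glucose level, were analyzed from a table of normalized read counts deposited by the authors, a signal in which each library's reads had been scaled by 1 size factor. The submitters' processing notes name the genome build hg38 and edgeR, whereas the study's methods name hg19, Ensembl v70, TopHat and DESeq2, so the build used for these samples is uncertain, and the counter and its strand setting are not given in the sources used here. The values of each library were whole multiples of 1 step. Dividing by it gave whole reads for 100% of values (tolerance 0.01 reads, largest deviation 5.82e-05), with 14094597 to 24425916 reads a library. Replicates of a group differed by more than counting noise (chi-square per gene 2.02 to 5.20), so none was counted as a repeat. Intervals and floors cover counting error only.

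Genes reaching 0.5 CPM in 2 samples of a fit were tested with limma 3.58.1 (trend, two-sided) on log2(value + 1), in R 4.3.3, with Benjamini-Hochberg adjustment over all genes tested and a threshold of 0.05. Fold changes are on that scale and understate changes of low genes. High against low glucose was fitted within each line, and the difference of responses and the lines on all 16 samples. The alternatives were pseudocounts of 0.5 and 5, other filters, TMM and quantile scaling, edgeR 4.0.16 and DESeq2 1.42.0 on the recovered reads, a replicate block, a correction for transcript length, and leaving out each sample. On the recovered reads edgeR called 2244 and DESeq2 2085 genes for MDA-MB-231 (limma 2245), and for MDA-MB-468 edgeR called 7484 and DESeq2 6632 (limma 7495). The tests were run on simulated data with known changes.

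The members and lists were chosen with earlier results of these data known. All 38 members are named, and from each other list the 2 genes with the largest absolute change among those called in each line, except 1 that is not reported here. Positions are of GENCODE v44 lifted to GRCh37, and promoter sequences of RefSeq (GRCh38.p14).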

Additional observations from a re-analysis of the deposited data

Results flagged for a closer look

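In 5 of 150 combinations of member and group, 1 library lay far from the other 3. Chance alone gives this in about 5% of groups, and the 5 here are 3.33%. In low-glucose MDA-MB-468, replicate 2 was the highest for SLC38A2, at 8090.1 normalized counts, and for MTHFD2, at 3907. In high-glucose MDA-MB-468, replicate 2 was the lowest for SARS1, at 5883. In high-glucose MDA-MB-231, replicate 4 was the highest for AARS1, at 5397, and replicate 1 the lowest for ALDH1L2, at 0.973, which is 1 read.

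The response to glucose differed between the lines, by the test of the difference itself (limma, MDA-MB-468 minus MDA-MB-231), for 23 members. Of these, 21 were lower and 2 higher in MDA-MB-468, against 13.9% and 17.0% of all genes. The log2 difference of responses was -1.03 for SLC7A11, -0.80 for SLC6A9, -0.79 for SLC38A2 and -0.44 for SLC3A2 among the transporters. Among the enzymes it was -1.42 for CTH, -0.61 for PSAT1, -0.51 for SHMT2, -0.43 for ASNS, -0.35 for MTHFD2, -0.21 for GPT2 and 0.25 for ALDH18A1. Among the synthetases it was -0.40 for WARS1, -0.34 for CARS1, -0.29 for GARS1, -0.27 for SARS1 and 0.29 for AARS1. Among the regulators it was -1.02 for DDIT3, -1.01 for CHAC1, -0.65 for SESN2, -0.47 for NUPR1, -0.28 for CEBPG, -0.26 for TRIB3 and -0.24 for DDIT4. Line and routine culture medium cannot be told apart in these differences.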

How the results depend on the processing

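Counts of members called stayed within 1.5 times their value under all alternatives run. Members called higher in MDA-MB-231 numbered 24 to 29 and called lower 0, and in MDA-MB-468 10 to 13 and 18 to 21, over 19 alternatives each. For the difference of responses, 21 to 22 were lower and 2 to 3 higher over 27. Of 4484 values of single members under an alternative, 4325 kept direction and side of the threshold, 80 lost a call, 31 gained one and 48 turned in direction. Of these 48, 7 involved a value called in either fit, all differences between the lines. In low glucose, SLC7A5 became 0.0080 and GARS1 0.12 with quantile normalization, and SLC3A2 became -0.070 and DDIT4 -0.028 with the correction for transcript length, with or without the replicate block. In high glucose, PSAT1 became 0.031 with quantile normalization. The other 41 were called in neither fit. In MDA-MB-231, SLC7A5 became 0.0015 with TMM scaling, 0.035 with quantile normalization, 0.00048 with edgeR, 0.00097 with DESeq2 and 0.016 with the length correction. In MDA-MB-468, SLC7A5 became -0.050 with quantile normalization and -0.0022 with DESeq2, and SLC7A1 0.037 with the length correction. The difference of responses became -0.087 for SLC7A5 and -0.084 for ATF4 with quantile normalization, and 0.028 for SLC7A1 with the length correction. Between the lines the length correction turned SHMT2 in low glucose to -0.055 and ASNS in high glucose to -0.0091. Leaving out 1 sample at a time gave -0.032 to 0.017 for SLC7A5 and -0.36 to 0.22 for STC2 in MDA-MB-231, -0.016 to 0.017 for SLC7A5 in MDA-MB-468, and -0.019 to 0.058 for SHMT2 between the lines in low glucose. For the difference of responses it gave -0.013 to 0.038 for SLC7A5, -0.025 to 0.016 for SLC7A1, -0.0011 to 0.036 for ATF4, -0.0087 to 0.22 for ATF3 and -0.092 to 0.027 for PYCR1. The cause was not tested.

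Same-numbered low- and high-glucose samples did not deviate together (correlations -0.040 to -0.0051 for MDA-MB-231, 0.017 to 0.032 for MDA-MB-468), so the numbers were not treated as a pairing. With the replicate block, 25 members were called higher and 0 lower in MDA-MB-231, and 13 and 18 in MDA-MB-468. Over all genes the block left 1624 calls, against 2245 without it, for MDA-MB-231, and 7383, against 7495, for the other line. It turned no direction of a member by itself, and not every sample correlated best with its own number. Depth limits ALDH1L2, CBS and STC2 in MDA-MB-231.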
